A study of Mus musculus with 12 samples.

Results

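Genes of endosomal sorting were examined in mouse embryonic stem cells with and without a compound that directs the release factor eRF1 to degradation. The set was chosen by symbol: every gene whose name begins with Vps, Chmp1 to Chmp7 or Snx followed by a digit, the WASH subunits Washc1 to Washc5, and Tsg101, Ubap1, Hgs, Stam, Stam2, Pdcd6ip, Sh3bp4, Mvb12a and Mvb12b. This gave 90 of the 22034 symbols in the table of ribosome footprints and 89 of the 49997 in the table of poly(A) RNA, where Chmp1b2 is listed under a synonym. The choice used no measured value in its wording, but Sh3bp4 and Ubap1 entered it with earlier results of these data known, so their tests are not independent evidence and counts are also given without them. Symbols do not always name a role in sorting: Vps72, a subunit of chromatin-remodelling complexes, is matched by its name.

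All libraries came from ES-E14TG2a cells, a mouse embryonic stem cell line, in which eRF1, which reads stop codons and releases the finished chain, carries the dTAG degron. Footprint groups were wild-type eRF1-dTAG cells and Gcn2 knockout eRF1-dTAG cells, each without treatment or with dTAG-13 at 500 nM for 1 h, and each with 2 replicates, A and B. Poly(A) RNA was sequenced in untreated and treated wild-type cells only, also with 2 replicates each. Gcn2, encoded by Eif2ak4, is the kinase that phosphorylates eIF2 when amino acids run short. Every group carries the tagged eRF1, and no vehicle-treated or untagged treated cells are named, so effects of the compound and of eRF1 loss cannot be told apart. The labels do not say how many clones the knockout rests on.

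Depth ran from 7874804 to 19691716 counts per footprint library and from 17462458 to 24256097 per RNA library. Endosomal sorting genes took 0.5905% to 0.6349% of footprint counts in untreated libraries and 0.5348% to 0.5817% in treated libraries. Eif2ak4 footprints lay between 27.7 and 34 CPM, counts scaled to a common library total, in wild-type libraries and between 2.33 and 5.36 CPM in the knockout. All 8 pluripotency markers listed were present, summing to 8500 to 9310 CPM per footprint library, whereas primed markers summed to 12.1 to 22.7 CPM, primitive endoderm markers to 5.42 to 10.5 CPM, fibroblast markers to 3.86 to 9.08 CPM, with Postn at 0 in every library, and two-cell-like markers to at most 0.602 CPM. In bulk libraries such as these, fewer cells of a type and less RNA per cell cannot be told apart.

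Membrane proteins that are taken up by endocytosis reach endosomes, where they are either returned to the surface or the Golgi, or sorted into vesicles inside the endosome and degraded in lysosomes. The ESCRT complexes act in the second route: ESCRT-0 and ESCRT-I bind ubiquitinated cargo, ESCRT-II links them to ESCRT-III, and ESCRT-III filaments cut the membrane neck before the ATPases Vps4a and Vps4b take them apart. Retromer, retriever and the sorting nexins, which bind phosphoinositide lipids, act in the return routes, and the WASH complex switches on the Arp2/3 complex to build actin on the endosome. HOPS and CORVET are tethers that bring endosomes and lysosomes together, and GARP and EARP tether vesicles that recycle to the Golgi or within the endosomal system. The same machinery is at work in most cell types, stem cells included.

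After dTAG-13, footprints on a few members fell strongly while most of the machinery was not called. In wild-type cells 0 members rose and 5 of the 86 tested fell, namely Sh3bp4, Ubap1, Washc5, Mvb12a and Vps50 (edgeR quasi-likelihood test, Benjamini-Hochberg adjusted p under 0.05). DESeq2 called 6 that fell, the same 5 and Snx3, and 2 that rose, Vps13a and Vps16. Snx3 had mean wild-type footprints of 150 CPM untreated and 109 CPM treated. Over all 12267 genes tested, 4.88% were called, 2.94% higher and 1.94% lower. In Gcn2 knockout cells 2 members rose and 9 fell, against 8.88% of all genes called, 3.16% higher and 5.71% lower. More than 2-fold falls were called for 1 member in wild-type cells (0.236% of all genes) and for 5 in knockout cells (1.07%). Without Sh3bp4 and Ubap1 these were 0 and 3. Sh3bp4, Ubap1, Washc5 and Vps50 fell in both genotypes, and 74 members were called in neither. With the 4 wild-type libraries fitted alone, Sh3bp4 passed, whereas Ubap1, Washc5, Vps50 and Mvb12a had adjusted p of 0.0546, 0.0545, 0.14 and 0.179 with log2 changes of -0.93, -0.88, -0.48 and -0.50. Without any single library of a genotype, Sh3bp4, Ubap1 and Washc5 were called in that genotype in each of the 4 fits. Without Sh3bp4 and Ubap1, 3 of 84 members fell in wild-type cells and 7 fell and 2 rose in knockout cells.

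For most members the change was small, as it was for most genes tested. The scaling of libraries (TMM) takes most genes as unchanged, so each change is relative to the other genes. A change shared by most genes would not show. The median log2 change over the tested members was -0.09 in wild-type cells, where it was -0.01 over all genes, and -0.04 in knockout cells, where it was 0.04 over all genes. In wild-type cells the middle 50% of members lay between -0.22 and 0.07, against -0.21 and 0.21 for all genes. At an unadjusted p under 0.05 there were 2 higher and 14 lower members in wild-type cells, against 10.1% of all genes higher and 8.98% lower. In knockout cells there were 7 higher and 18 lower, against 12.1% and 12.4% of all genes. Treated and untreated libraries did not overlap, with the treated pair lower, for 27 members in wild-type cells, where the same held for 22.8% of all genes, and for 34 in knockout cells, against 27% of all genes. The treated pair was the higher for 15 members in wild-type cells (22.3% of all genes) and for 20 in knockout cells (32.5%). Snx31, Snx32, Snx33 and Vps25 had too few footprints to be tested.

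**Figure D1:**
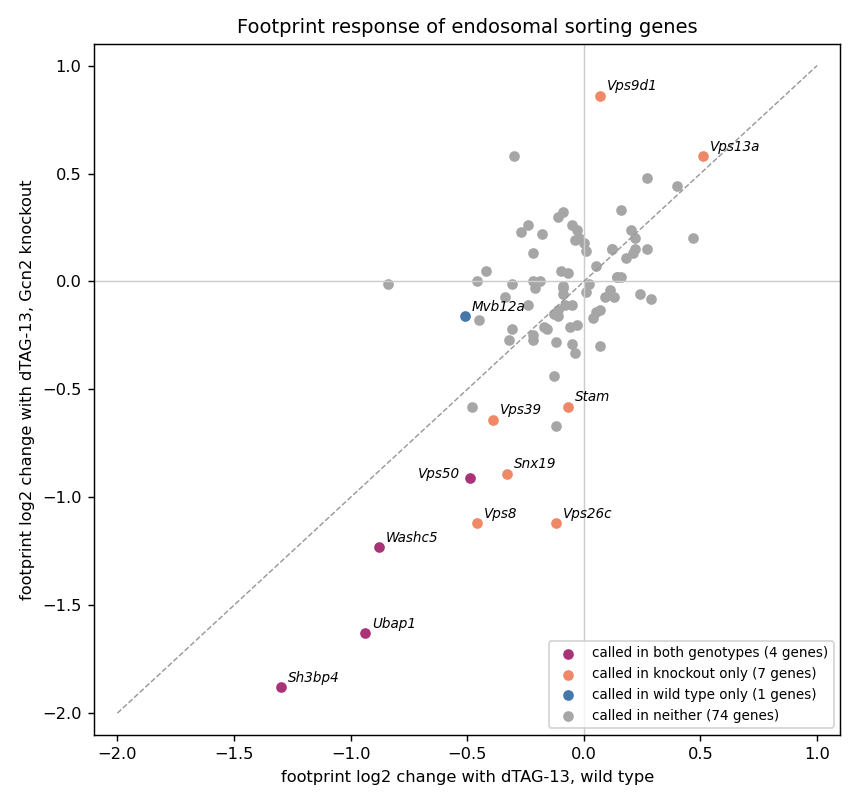
Each point is 1 of the 86 tested endosomal sorting genes, with its footprint log2 change after dTAG-13 in wild-type cells on the horizontal axis and in Gcn2 knockout cells on the vertical axis; colours mark calls at an adjusted p under 0.05 and the dashed line marks equal changes. Sh3bp4, Ubap1 and Washc5 lie farthest to the lower left and below the line, and most of the 74 members called in neither genotype lie closer to the origin, with uncalled values down to -0.84 (Vps37d, wild type).

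Sh3bp4, an endocytic adaptor with an SH3 domain that associates with clathrin-coated pits, had the largest fall among the members. Its gene lies at chromosome 1, 89070333 to 89155087 (GRCm38). Footprints were 60.3 and 68 CPM in untreated and 27.1 and 25.1 CPM in treated wild-type libraries. In the knockout they were 48.8 and 58.8 CPM untreated and 14.3 and 14.9 CPM treated. Each treated library was below each untreated library of its genotype. The knockout's pair lay below that of the wild type both untreated and treated. Wild-type cells showed a 2.46-fold fall (log2 change -1.30, SE 0.141, adjusted p = 0.000859), the 46th lowest value of 12267 genes. Knockout cells showed a 3.68-fold fall (-1.88, SE 0.146, adjusted p = 5.91e-05), the 12th lowest. Sh3bp4 RNA in wild-type cells was 66.7 and 71.1 CPM untreated and 68.2 and 73.4 CPM treated, so the groups overlapped.

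Ubap1 encodes the ESCRT-I subunit that binds ubiquitin and assigns ESCRT-I to endosomes, and lies at chromosome 4, 41348996 to 41389766. Footprints were 37.1 and 38.6 CPM in untreated and 20.3 and 19.4 CPM in treated wild-type libraries. In knockout libraries they were 35.7 and 36.3 CPM untreated and 11.6 and 11.7 CPM treated. The fall was 1.91-fold in wild-type cells (log2 change -0.94, SE 0.134, adjusted p = 0.00288) and 3.09-fold in knockout cells (-1.63, SE 0.138, adjusted p = 6.96e-05). Ubap1 RNA was 58.9 and 60.1 CPM untreated and 58 and 60.1 CPM treated, with a log2 change of -0.01 (SE 0.0652).

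Washc5 encodes strumpellin, a WASH subunit, at chromosome 15, 59331863 to 59374194. Its footprints were 125 and 112 CPM in untreated and 65.4 and 63.1 CPM in treated wild-type libraries, and 116 and 108 CPM in untreated and 48.4 and 46.9 CPM in treated knockout libraries. Groups were apart in both genotypes. The fall was 1.84-fold in wild-type cells (log2 change -0.88, SE 0.117, adjusted p = 0.00214) and 2.35-fold in knockout cells (-1.23, SE 0.117, adjusted p = 0.000186). Washc5 RNA was 149 and 163 CPM untreated and 163 and 160 CPM treated.

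Vps50, at chromosome 6, 3498393 to 3603531, encodes syndetin, the subunit that sets the EARP tether apart from GARP. Footprints were 80.4 and 81 CPM in untreated and 55.1 and 60 CPM in treated wild-type libraries, a 1.4-fold fall (log2 change -0.49, SE 0.122, adjusted p = 0.0401). In the knockout they were 76.4 and 67.9 CPM untreated and 40.2 and 36.6 CPM treated, a 1.88-fold fall (-0.91, SE 0.124, adjusted p = 0.000847). The wild-type call was lost whichever of the 4 wild-type footprint libraries was left out, with log2 changes of -0.55 to -0.43 and adjusted p of 0.0813 to 0.174. The knockout call stayed in each of the 4 such fits.

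**Figure D2:**
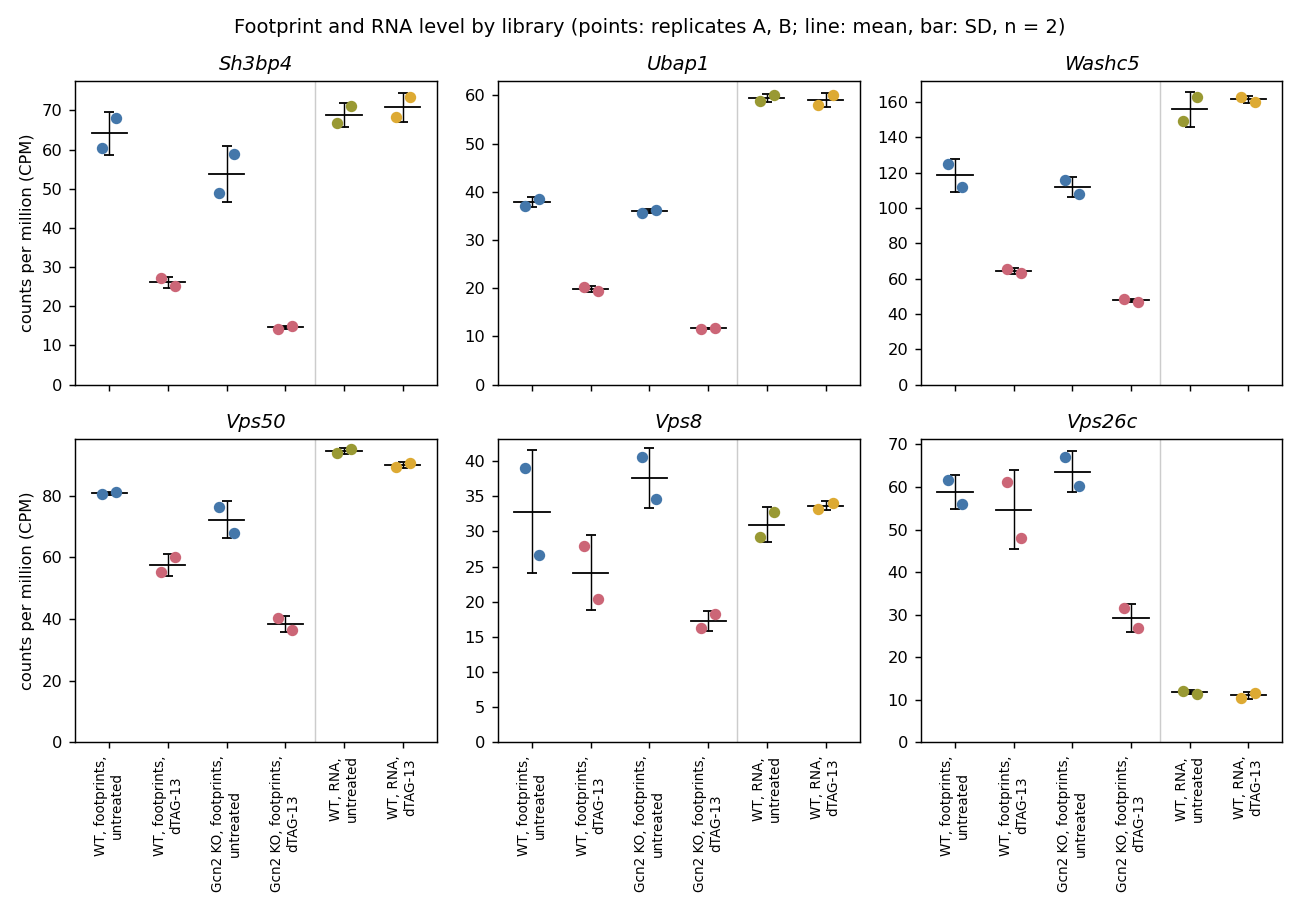
CPM of 6 endosomal sorting genes in each of the 12 libraries, with footprints left of the grey line and wild-type poly(A) RNA right of it; points are replicates A and B, the line is their mean and the bar the SD (n = 2). Treated footprint pairs of Sh3bp4, Ubap1, Washc5 and Vps50 lie below the untreated pairs of both genotypes, those of Vps26c and Vps8 are separated from them in knockout cells alone, and RNA of none of the 6 was called.

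Promoters are shown for the members that fell in both genotypes and have an entry in the RefSeq promoter table (GRCm38.p6). Their RNA was not called in wild-type cells, and a link between promoters and the footprint falls was not tested. Each run holds the 250 bases before the start site used by the table, 5′ to 3′ on the gene's strand, with matches to 6 promoter motifs in capitals.
Sh3bp4: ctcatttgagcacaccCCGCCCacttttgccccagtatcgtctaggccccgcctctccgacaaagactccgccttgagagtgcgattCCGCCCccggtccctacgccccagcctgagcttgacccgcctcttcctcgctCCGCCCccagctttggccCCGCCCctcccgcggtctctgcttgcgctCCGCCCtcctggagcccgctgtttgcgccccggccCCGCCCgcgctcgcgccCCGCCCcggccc
Ubap1: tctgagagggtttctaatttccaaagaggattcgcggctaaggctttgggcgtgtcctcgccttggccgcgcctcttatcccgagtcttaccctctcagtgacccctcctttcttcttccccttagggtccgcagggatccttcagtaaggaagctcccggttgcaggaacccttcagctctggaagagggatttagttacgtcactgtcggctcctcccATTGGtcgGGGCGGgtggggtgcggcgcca
Vps50: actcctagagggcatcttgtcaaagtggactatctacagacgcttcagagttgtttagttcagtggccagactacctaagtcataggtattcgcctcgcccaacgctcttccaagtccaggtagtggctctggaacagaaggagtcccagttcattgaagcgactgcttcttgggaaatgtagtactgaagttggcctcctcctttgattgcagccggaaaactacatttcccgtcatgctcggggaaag
These are chr1:89070165-89070414, chr4:41348746-41348995 and chr6:3498143-3498392, all on the plus strand. Motifs were searched on both strands as exact letters: the E-box CACGTG, the GC box GGGCGG, the CCAAT box CCAAT, the ETS site CCGGAAG, the cAMP response element TGACGTCA and the TATA box TATAAA. The Sh3bp4 promoter held 7 GC boxes on the other strand (written CCGCCC), and the Ubap1 promoter held a GC box and a CCAAT box on the other strand (written ATTGG) that do not overlap. The Sh3bp4 window runs past 89070333, where the gene span given above begins. Its GC boxes that begin 64, 29 and 12 bases before the window's end lie inside that span. None of the 6 motifs was found in the Vps50 window.

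Of the 90 members 62 had a promoter entry, and 38 of these (61.3%) held a GC box, against 32.9% of the 27025 promoters in the table. The E-box, which the lysosomal regulators of the TFEB family bind in an extended form, was in 8 member promoters (12.9%) and in 6.05% of all. An ETS site was in 10 (16.1%, against 7.05%), a CCAAT box in 18 (29%, against 34.5%) and a TATA box in 4 (6.45%, against 13%). None held the cAMP response element, which 1.62% of all promoters held. Median GC content was 61.4% in member promoters and 52% in all. Among the 8 promoters of members that fell in either genotype, 6 held a GC box and 0 an E-box. The 27025 promoters were not limited to the genes tested here, nor matched to the members by expression. These shares therefore do not show a trait particular to sorting genes. A match here describes letters in a window and is no evidence of binding.

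In the reported edgeR fit, calls among the ESCRT genes fell to members of ESCRT-0 and ESCRT-I. ESCRT-0, which gathers ubiquitinated cargo, has 3 members. Stam fell in knockout cells, from 56.2 and 48.8 to 35.6 and 34.8 CPM, a 1.49-fold fall (log2 change -0.58, SE 0.127, adjusted p = 0.0135). Its wild-type footprints were 49.1 and 51.9 CPM untreated and 46.4 and 49.7 CPM treated, which overlap (-0.07, SE 0.126). Its partner Hgs had log2 changes of -0.08 and -0.11 and Stam2 of -0.05 and -0.11, in wild-type and knockout cells respectively, with SEs of 0.117 to 0.122.

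In ESCRT-I, 2 of 9 members fell in wild-type and 1 in knockout cells, and the group medians were -0.21 and -0.01. Beside Ubap1, Mvb12a, an ESCRT-I subunit of multivesicular bodies, fell in wild-type cells from 116 and 96.1 to 79.6 and 70.1 CPM (log2 change -0.51, SE 0.130, adjusted p = 0.0432). In knockout cells Mvb12a was 107 and 113 CPM untreated and 103 and 93.4 CPM treated (-0.16, adjusted p = 0.494). Its wild-type call stayed in 1 of the 4 fits without a wild-type footprint library, that without untreated replicate B, with log2 changes of -0.63 to -0.36. Tsg101, the core ESCRT-I subunit, was 78.6 and 81.1 CPM untreated and 67.5 and 80 CPM treated in wild-type libraries (-0.11, adjusted p = 0.689), and 68 and 64.9 CPM untreated and 83.3 and 80.7 CPM treated in knockout libraries (0.30, adjusted p = 0.138).

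ESCRT-II was represented by Vps36, whose log2 changes were -0.31 (adjusted p = 0.148) in wild-type and -0.01 in knockout cells. None of the 14 genes of ESCRT-III and its disassembly was called in either genotype by the reported edgeR fit. Changes spanned -0.42 to 0.16 (wild type) and -0.30 to 0.26 (knockout). Chmp4b, with mean wild-type footprints of 80.8 CPM untreated and 60.2 CPM treated, was called in wild-type cells by edgeR with no filter. Vps4a, an ATPase that recycles ESCRT-III, was 39.3 and 42.5 CPM untreated and 30 and 35.6 CPM treated in wild-type libraries (log2 change -0.31, adjusted p = 0.224). Its paralogue Vps4b was 94.9 and 89 CPM untreated and 76.5 and 72.7 CPM treated in knockout libraries (-0.30, adjusted p = 0.125), groups apart but not past the threshold in this fit. With knockout libraries alone, edgeR called Vps4b (-0.34, adjusted p = 0.0449). Pdcd6ip, or ALIX, which recruits ESCRT-III to its sites, had changes of 0.16 and 0.02.

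Within the WASH complex Washc5 was the member that fell in either genotype. Washc1, the subunit that activates Arp2/3, was 45.5 and 37.7 CPM untreated and 47.2 and 45.9 CPM treated in wild-type libraries, and 40.4 and 44.2 CPM untreated and 54.4 and 52.2 CPM treated in knockout libraries. Washc2, the long-tailed subunit that binds retromer, was the most abundant, with 274 and 294 CPM untreated and 302 and 314 CPM treated in wild-type and 238 and 224 CPM untreated and 258 and 253 CPM treated in knockout libraries. The 4 other subunits had log2 changes of -0.18 to 0.16 in wild-type and of 0.15 to 0.33 in knockout cells, none of them called in the reported fit. The added block within genotype called Washc1 in knockout cells.

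Retromer, which retrieves cargo to the Golgi and the cell surface, showed no call among its 4 genes. Vps35, its scaffold, was 348 and 337 CPM untreated and 376 and 399 CPM treated in wild-type libraries (log2 change 0.18, SE 0.133, adjusted p = 0.514), and its change in knockout cells was 0.11. Vps26a changed by 0.05 and -0.14 and Vps29 by -0.00 and 0.18, in wild-type and knockout cells.

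Retriever is built like retromer and recycles integrins and other receptors through the adaptor Snx17. Vps26c, its arrestin-like subunit at chromosome 16, 94497724 to 94526629, was 61.7 and 56 CPM untreated and 61.2 and 48.1 CPM treated in wild-type libraries, which overlap (log2 change -0.12, SE 0.145, adjusted p = 0.735). In knockout libraries it was 67 and 60.3 CPM untreated and 31.5 and 27 CPM treated, a 2.18-fold fall (-1.12, SE 0.149, adjusted p = 0.000761). This fall was called in each of the 4 fits without a knockout library. Vps35l, the scaffold of retriever, was 111 and 109 CPM untreated and 94.3 and 96.3 CPM treated in the knockout (-0.21, SE 0.107), and Snx17 was 14.5 and 14.3 CPM untreated and 14.3 and 13.3 CPM treated.

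Sorting nexins with a BAR domain, which bends membranes, showed no call in the reported edgeR fit. In knockout cells edgeR with no filter called Snx33, with 7 and 8 counts untreated and 0 and 0 treated. The added block within genotype called Snx4 and Snx6 lower and Snx5 higher there. Snx5 was the most abundant of those that act in recycling, with 504 and 580 CPM untreated and 433 and 588 CPM treated in wild-type libraries, and 403 and 440 CPM untreated and 533 and 515 CPM treated in knockout libraries (log2 change 0.32, adjusted p = 0.201). Snx1 changed by -0.16 and -0.22 and Snx2 by -0.13 and -0.15, in wild-type and knockout cells. Among those of endocytosis, Snx18 changed by -0.04 and 0.19. Across the 8 tested BAR nexins of recycling, changes spanned -0.24 to -0.03 in wild-type and -0.29 to 0.32 in knockout cells.

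Of the 16 other sorting nexins tested, Snx19, which tethers endosomes to the endoplasmic reticulum, fell in knockout cells. Its footprints were 15.9 and 14.6 CPM untreated and 8.17 and 8.31 CPM treated, a 1.85-fold fall (log2 change -0.89, SE 0.170, adjusted p = 0.00642), against 12.8 and 13.1 CPM untreated and 9.55 and 10.9 CPM treated in wild-type libraries (-0.33, SE 0.170, adjusted p = 0.32). The knockout calls of Snx19 and Stam each stayed in 1 of 4 fits without a knockout library, that without untreated replicate B, with adjusted p of 0.0237 to 0.0904 for Snx19 and 0.0216 to 0.153 for Stam. Snx27, the PDZ-domain nexin that works with retromer, was 34.9 and 35.7 CPM untreated and 27 and 25.2 CPM treated in the knockout (-0.44, adjusted p = 0.0663). It was called by DESeq2 and, in edgeR, with no filter (adjusted p = 0.0327), with knockout libraries alone (0.022) and with the replicate block (0.0458), and in none of the 4 fits without a knockout library (0.157 to 0.377).

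Of the 9 genes of HOPS, CORVET and their partner SM proteins, 2 fell in knockout cells in the reported edgeR fit. That fit called none in wild-type cells. Vps16, a core subunit of both tethers whose gene overlaps Pced1a, was 49.3 and 43.6 CPM untreated and 65.7 and 62.8 CPM treated in wild-type libraries (log2 change 0.47, SE 0.135, adjusted p = 0.069 in that fit). DESeq2 called it, as did edgeR with no filter, with the replicate block and with the block within genotype. Vps8, the subunit that links CORVET to Rab5 on early endosomes, was 40.6 and 34.6 CPM untreated and 16.3 and 18.3 CPM treated in knockout libraries, a 2.17-fold fall (log2 change -1.12, SE 0.202, adjusted p = 0.00487). In wild-type libraries its replicates were far apart, at 39 and 26.6 CPM untreated and 27.9 and 20.4 CPM treated (-0.46, SE 0.201, adjusted p = 0.235). For each letter the treated wild-type library was the lower. With the block within genotype, an added alternative that called 2109 of all genes, edgeR called Vps8 in wild-type cells (-0.43, adjusted p = 0.0173). The knockout call of Vps8 was lost without untreated replicate A or treated replicate A, with adjusted p up to 0.0672. Vps39, a HOPS subunit that binds Rab7, was 19 and 19.4 CPM untreated and 10.9 and 13.5 CPM treated in the knockout (-0.64, SE 0.179, adjusted p = 0.0416), a call that was lost whichever knockout library was left out (adjusted p 0.128 to 0.322). The other 7 genes of the group had knockout changes of -0.13 to 0.24.

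Apart from Vps50, the tethers GARP and EARP were not called: Vps51, Vps52, Vps53 and Vps54 changed by -0.22 to 0.22 in wild-type and by -0.25 to 0.20 in knockout cells. In the reported edgeR fit, Vps13a and Vps9d1 were the members that rose, both in knockout cells. There edgeR also called a rise of Vps13c with no filter and with knockout libraries alone. Vps13a, a bridge-like lipid transfer protein, was 51.7 and 39.8 CPM untreated and 66.2 and 70.1 CPM treated in knockout libraries (log2 change 0.58, SE 0.145, adjusted p = 0.0268), and 55.9 and 62.4 CPM untreated and 77.6 and 90.1 CPM treated in wild-type libraries (0.51, SE 0.144, adjusted p = 0.0643). In wild-type cells DESeq2 called Vps13a, as did edgeR with no filter (0.49, adjusted p = 0.0179) and with the replicate block (0.51, adjusted p = 0.0392). Without 1 wild-type library its adjusted p ran from 0.0695 to 0.272. Vps9d1, which carries the VPS9 domain of Rab5-family activators, was 3.47 and 3.85 CPM untreated and 7.05 and 6.25 CPM treated in the knockout (0.86, SE 0.212, adjusted p = 0.0239). The knockout calls of Vps13a and Vps9d1 are less firm. That of Vps13a stayed in 1 of 4 fits without a knockout library (that without untreated replicate A). That of Vps9d1 stayed in none (adjusted p 0.0715 to 0.245), and DESeq2 gave Vps9d1 an adjusted p of 0.0547.

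**Figure D3:**
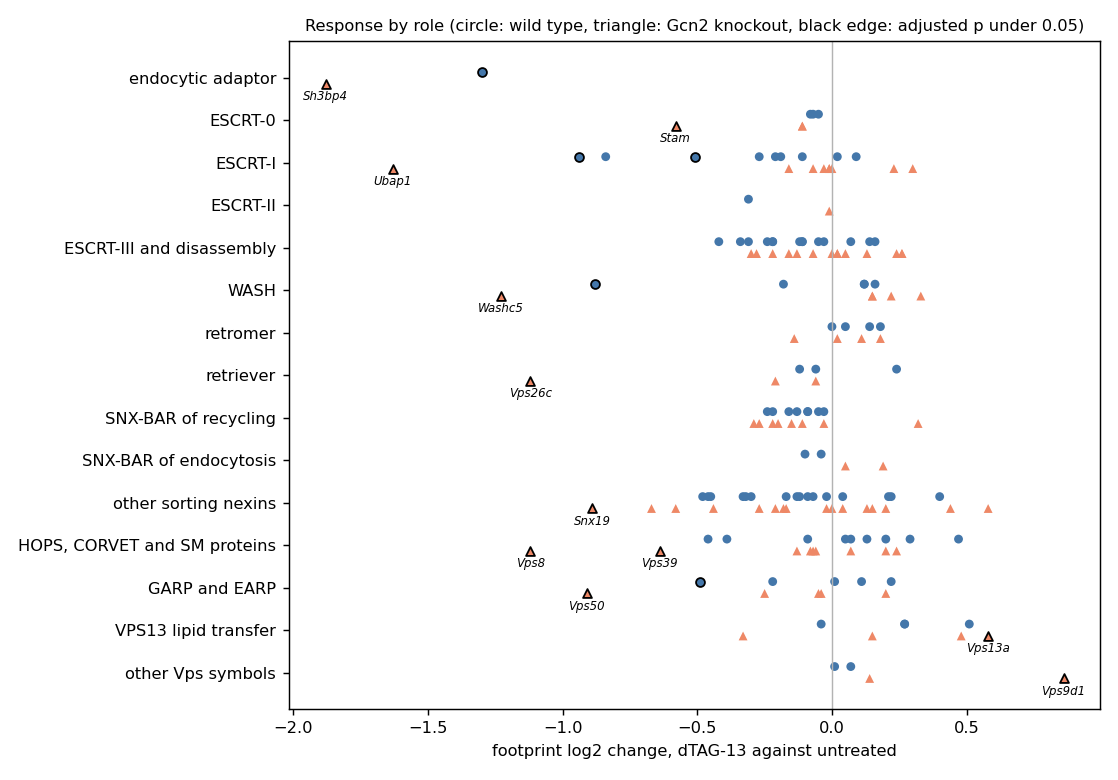
Footprint log2 change after dTAG-13 of the 86 tested genes by role, with circles for wild-type and triangles for Gcn2 knockout cells; a black edge marks an adjusted p under 0.05, and names mark the knockout calls. In the WASH, ESCRT-I, retriever and GARP and EARP rows 1 gene lies far to the left of the rest of its row in knockout cells, and no gene of retromer, ESCRT-III or the BAR nexins is called.

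Falls were numerically larger in the knockout for each of the 4 members called in both genotypes, but the test of the difference itself did not pass for any member. The difference of log2 changes, knockout minus wild type, was -0.58 for Sh3bp4 (SE 0.201, adjusted p = 0.342), -0.69 for Ubap1 (SE 0.192, adjusted p = 0.248), -0.35 for Washc5 (SE 0.164, adjusted p = 0.505) and -0.43 for Vps50 (SE 0.173, adjusted p = 0.428). The largest was that of Vps26c, at -1.01 (SE 0.207, adjusted p = 0.114). By edgeR 0 of 86 members and 0.0489% of all genes were called for this difference, 12 members and 10% of all genes had an unadjusted p under 0.05, and DESeq2 called 1 member, Vps26c (adjusted p = 0.00346). Vps26c also passed in edgeR without treated wild-type replicate B (adjusted p = 0.0452), and over all alternatives its adjusted p ran from 9.64e-05 to 0.88, with log2 differences of -1.22 to -0.83. Responses in the 2 genotypes share no library. Across the 86 members they had a Pearson r of 0.666 and a Spearman rho of 0.495, against 0.455 and 0.441 over all 12267 genes. This is a description over genes that are not independent. The 86 include Sh3bp4 and Ubap1, which fell in both genotypes, and the correlations were not computed without them.

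No member was called between the genotypes before treatment. By edgeR 0 of 86 members and 0.00815% of all genes were called between untreated knockout and wild-type cells. At an unadjusted p under 0.05 there were 3 higher and 8 lower members, against 5.98% of all genes in either direction, and DESeq2 called 1, Snx20. Snx20, a nexin that binds P-selectin ligand in blood cells, was 7.84 and 6.25 CPM in wild-type and 17.2 and 17.9 CPM in knockout untreated libraries (log2 difference 1.31, SE 0.208, adjusted p = 0.113). Treated libraries held 8.49 and 5.22 CPM in wild-type and 17.5 and 17 CPM in knockout cells, so the genotypes were apart at both treatments. Sh3bp4 and Ubap1 had untreated differences of -0.25 and -0.07.

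No member was called in RNA. In wild-type cells 0 of 88 members were called in poly(A) RNA by edgeR and 0 by DESeq2, 3 had an unadjusted p under 0.05 (5.13% of all genes), and 0.163% of all genes were called. Log2 changes of RNA ran from -0.25 (Mvb12b) to 0.31 (Vps13b, adjusted p = 0.221), with a median of 0.00. Across the 85 members tested in both assays, footprint and RNA changes had a Pearson r of 0.105 and a Spearman rho of 0.198. No RNA was sequenced in knockout cells, so the falls that the reported fit called there alone, such as those of Vps26c and Vps8, have no RNA beside them.

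Translational efficiency, the change of footprints relative to RNA, was tested as the interaction of assay and treatment in wild-type cells. Of 89 members 3 fell and 0 rose by edgeR, against 1.47% of all genes called, 0.691% lower and 0.784% higher. Without Sh3bp4 and Ubap1, 1 of 87 fell. At an unadjusted p under 0.05 there were 3 higher and 10 lower members, against 7.38% of all genes higher and 6.87% lower. Sh3bp4 fell by 1.34 on the log2 scale (SE 0.146, adjusted p = 0.00602), Ubap1 by 0.93 (SE 0.134, adjusted p = 0.0171) and Washc5 by 0.93 (SE 0.129, adjusted p = 0.0131). Each was called without any single footprint library and lost when any single RNA library was left out, with adjusted p of 0.0799 to 0.0993 for Sh3bp4, 0.148 to 0.166 for Ubap1 and 0.113 to 0.148 for Washc5 and log2 values of -1.40 to -1.29 for Sh3bp4 and -0.95 to -0.90 for Ubap1. Vps50 and Mvb12a had values of -0.41 (adjusted p = 0.126) and -0.50 (adjusted p = 0.168). With the replicate block edgeR called 8 members lower and 2 higher, and 1561 of all genes. Those lower included Mvb12a (-0.49, adjusted p = 0.00337), Vps50 (-0.42, adjusted p = 0.0109) and Vps8 (-0.56, adjusted p = 0.0052).

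**Figure D4:**
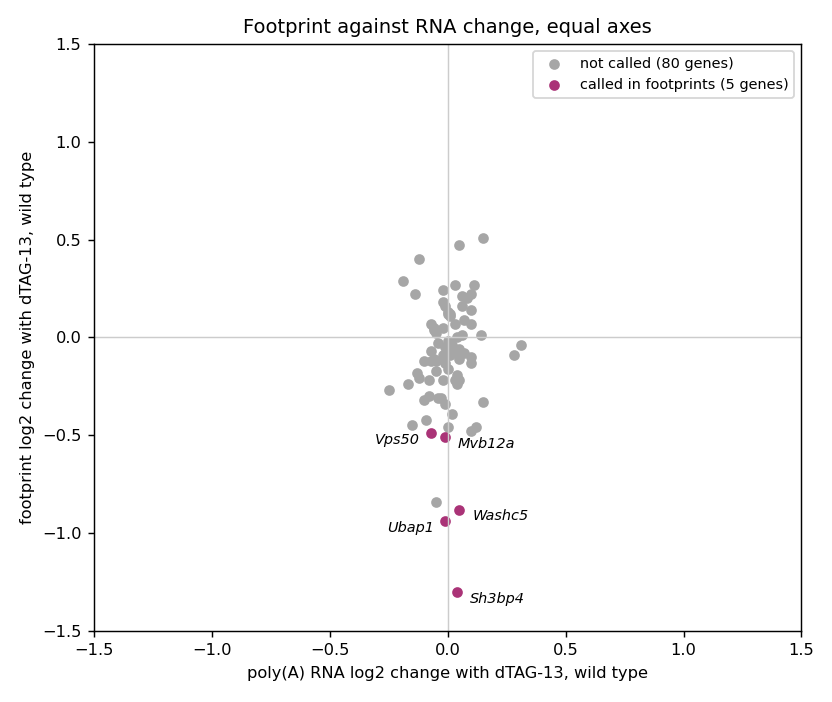
Wild-type log2 changes after dTAG-13 of the 85 endosomal sorting genes tested in both assays, with poly(A) RNA on the horizontal and footprints on the vertical axis, drawn at equal scale. RNA changes stay between -0.25 and 0.31, whereas footprint changes reach -1.30 for Sh3bp4; the 5 called genes lie below the horizontal line with RNA changes near 0.

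Other genes of the endosomal and lysosomal pathway were listed with earlier results known: 119 genes of clathrin-mediated uptake, ubiquitin ligases and deubiquitinases of sorting, Rab proteins and their effectors, lipid kinases, COMMD proteins, the Arp2/3 complex and cargo receptors. Of 114 tested in footprints, 4 rose and 9 fell in wild-type cells, against 2.94% of all genes higher and 1.94% lower. In knockout cells 4 rose and 9 fell, against 3.16% and 5.71% of all genes. The medians were -0.06 and -0.03. Usp8, the deubiquitinase that acts with ESCRT-0, fell in both (log2 changes -0.65 and -0.97), as did the endocytic scaffold Itsn1 (-0.74 and -1.14), the clathrin adaptor Epn2 (-0.57 and -1.02), the ubiquitin ligase Itch (-0.64 and -0.86) and the AP-2 subunit Ap2m1 (-0.52 and -0.48). Pik3r4, the regulatory subunit of the kinase Vps34, rose in both (0.73 and 0.51). In wild-type cells the clathrin heavy chain Cltc (0.98), another AP-2 subunit, Ap2b1 (0.70), and another ubiquitin ligase, Nedd4 (0.48), rose, whereas Mon1a fell (-1.06). In knockout cells the Arp2/3 subunits Arpc1a (0.80) and Arpc1b (0.53) rose, whereas Rbsn, an effector of Rab5, fell (-0.95). The knockout calls of Usp8, Itsn1 and Epn2 held in each of the 4 fits without a knockout library and that of Rbsn in 3 (not without treated replicate B), and the wild-type call of Cltc held in 3 (not without untreated replicate A). Apart from Ap2b1, Nedd4 and Mon1a, the other calls named among these genes were lost in 2 to 4 of the 4 fits without a library of that genotype. For Ap2b1, Nedd4 and Mon1a these fits are not given.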

How the data were processed

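Footprints were measured in 8 libraries and poly(A) RNA in 4, each group with 2 replicates called biological in the labels. The deposited values are raw counts per gene symbol, made by the authors with CASAVA 1.4, cutadapt, HISAT2 2.1.0 and mm10, per the submitters' processing notes. The sources used here do not give how footprints were assigned to genes, and 18 members overlap another coding gene, among them Tsg101, Vps16, Vps29, Vps51 and Vps54. The column of treated knockout replicate B was matched by its title alone, so values by letter in that group depend on it. Per-sample columns not used numbered 0.

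Tests used edgeR 4.0.16 under R 4.3.3: filterByExpr with a minimum count of 10, TMM, robust quasi-likelihood fits over all genes, two-sided tests and a Benjamini-Hochberg adjusted p under 0.05. The 8 footprint libraries formed 1 fit of 12267 genes with 4 residual degrees of freedom, RNA another of 15955 genes with 2, and translational efficiency another of 12887 genes over the 8 wild-type libraries. CPM are counts scaled by TMM library sizes, and SEs come from the change and its F statistic. DESeq2 1.42.0, RLE scaling, no filter, the replicate block, fits without a library or with 1 genotype were alternatives, and the block within genotype was added after seeing the data. The wild-type footprint, RNA and translational efficiency comparisons were also run on simulated counts, with a constant spread and no shared replicate effect. The outcome is not given here, and the comparisons that involve the knockout were not simulated.

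Members and lists were chosen with earlier results of these data known. Among members this is stated for Sh3bp4 and Ubap1, and whether it touched the choice of others, such as Washc5, is not known. Named genes are all called members, 16 fixed members (Sh3bp4, Ubap1, Tsg101, Hgs, Stam, Stam2, Vps35, Vps26a, Vps29, Vps4a, Vps4b, Washc5, Snx1, Snx2, Snx27, Pdcd6ip) and the most abundant member of each role group with no call. Others, among them the WASH and retriever partners, Snx20, Vps13b, Vps16, Vps25, Vps37d and Vps52, were named after their values were seen. A change not called in either of 2 fits was given no direction. Stop codons and coding lengths were not analysed here.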

Additional observations from a re-analysis of the deposited data

How the results depend on the processing

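With 2 libraries per group, calls near the threshold moved with the processing. Members called in wild-type footprints, 5 in the reported fit, numbered 8 in DESeq2, 9 with no filter, 1 with wild-type libraries alone (Sh3bp4; Ubap1 and Washc5 then had adjusted p of 0.0546 and 0.0545) and 3 to 6 without 1 library. In knockout footprints the 11 became 5 to 8 without 1 library, and 14 with no filter or with knockout libraries alone. For the difference between genotypes 0 became 1 (Vps26c) in DESeq2 and with no filter, and 0 to 1 without 1 library. For untreated genotypes 0 became 1 (Snx20) in DESeq2 and with no filter, and stayed 0 without 1 library. For RNA 0 became 1 (Vps13b) with no filter and 0 to 2 without 1 library, and for translational efficiency 3 became 0 to 6. RLE scaling left the number of members called in each comparison as reported. Of the named members' single values under the alternatives, most of which concern changes that were never called, 1628 stayed on the same side of the threshold, 30 newly passed it, 43 no longer did, and no called value changed sign.

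Over all genes, the 599 wild-type calls became 1048 with no filter, 19 with wild-type libraries alone, 931 with the replicate block and 197 to 659 without 1 library, and the 1089 knockout calls became 1658, 1893, 1564 and 215 to 601. The 6 calls for the difference became 114 in DESeq2, 192 with no filter and 0 to 32 without 1 library, the 1 call between untreated genotypes became 31, 113 and 1 to 10, the 26 for RNA became 7, 34 and 14 to 267, and the 190 for translational efficiency became 452, 459 and 0 to 671.

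The replicate letters mark no named batch. Deviations of same-lettered libraries correlated at 0.49 in wild-type footprints, 0.101 in knockout footprints and 0.0147 in RNA. With the replicate block, 8 members were called in wild-type and 12 in knockout footprints, 1 for the difference (Vps26c), 1 between untreated genotypes (Snx20) and 10 for translational efficiency. With the block within genotype these were 13, 22, 6 (Sh3bp4, Snx3, Stam, Ubap1, Vps26c and Vps8) and 1 for the first 4 comparisons. Over all genes the replicate block gave 39 calls for the difference, 14 between untreated genotypes, 16 for RNA and 1561 for translational efficiency, and the block within genotype gave 2109, 3149, 733 and 301 for the first 4.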

Other observations

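Over the 8 footprint libraries, the 5 genes whose log2 CPM was most like that of Sh3bp4, of all genes tested, were Smarcal1 (Pearson r 0.994), Ubap1 (0.993), Taf2 (0.993), Dock5 (0.993) and Cald1 (0.989). For Ubap1 they were Smarcal1 (0.997), Slc35a5 (0.994), Sh3bp4 (0.993), Taf3 (0.993) and Epn2 (0.993). Washc5 stood 24th in the list of Sh3bp4 (0.979) and 12th in that of Ubap1 (0.987), and Vps50 stood 92nd and 54th (0.956 and 0.971). These libraries share 2 treatments and 2 genotypes, which all such genes have in common.

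A few members had footprint levels far from their RNA levels in untreated wild-type libraries, on a scale of log2 footprint CPM over RNA CPM across 11328 genes with at least 20 RNA counts. Vps25, an ESCRT-II subunit, had 4 and 1 footprint counts against 2005 and 1806 RNA counts (log2 ratio -9.01, percentile 0.327). Vps52, shared by GARP and EARP, had 1095 and 1052 footprint counts against 71 and 89 RNA counts (3.88, percentile 98.8). Vps26c stood at 2.19 (percentile 96.5), whereas Ubap1 (-0.78), Washc5 (-0.53), Vps50 (-0.35), Sh3bp4 (-0.23) and Vps8 (-0.05) lay between percentiles 45.7 and 71. The sources used here do not say whether reads that fit several places were kept, and the part of such reads in the values of Vps25 and Vps52 was not tested.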
